A study of Mus musculus with 9 samples.

Results

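The keratin genes encode the intermediate filament proteins of epithelial cells. They were taken here as every gene on the array whose symbol is Krt followed by a number, with or without a letter, which leaves out the keratin-associated proteins. Of 19505 named genes, 49 met this rule, each through a single array feature. Krt6a, Krt6b, Krt81, Krt83, Krt85 and Krt87 were not found under those names and are not analysed here.

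RNA came from back skin of C57BL/6J mice aged 8 weeks, whose hair had been removed. All animals received 5% imiquimod cream daily for 7 days; imiquimod is a Toll-like receptor agonist that produces psoriasis-like dermatitis in mice. In the stretch group (IMQ+F, 5 samples) a plastic device glued to the skin was elongated by 10 mm on the first day, and in the no-stretch group (IMQ+N, 4 samples) the skin was not stretched. The protocol text does not say whether non-stretched skin carried the device, and no array of untreated or unshaved skin was analysed here. Since separate mice are not stated, the p-values describe scatter among these samples, some of which may be technical. The comparison asks how keratin expression in inflamed skin differs when the skin is also stretched.

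Keratin filaments are built from pairs of a type I (acidic) and a type II (basic) keratin, and each layer of the skin uses its own pair. Dividing basal keratinocytes make Krt5 with Krt14, and differentiating cells above them make Krt1 with Krt10. Wounded, inflamed or hyperproliferative epidermis adds the stress keratins Krt6, Krt16 and Krt17. In the growing hair follicle the inner root sheath, which moulds the shaft, uses Krt25 to Krt28 with Krt71 to Krt73, and the shaft itself uses a separate set of hair keratins.

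Expression was measured on Affymetrix arrays as log2 values, so that a difference of 1 is a doubling of signal. A feature's signal does not give one gene's level against another's, so tests compare samples, and a gene's place among all genes is used only to mark features near the floor or the ceiling of the array. Each change is the stretch mean minus the no-stretch mean, tested with limma's moderated test and called at a Benjamini-Hochberg adjusted p under 0.05 over all 19505 genes. No-stretch replicate 3 and stretch replicate 1 had the lowest array weights (0.579 and 0.547, against 0.758 to 1.58 for the other 7). The lower quartile of all genes was 4.07 on no-stretch replicate 3 and 3.77 to 3.90 on the other 8 arrays. Keratinocyte markers other than keratins had 7 of 11 changes above 0 and none called, where 0.246% of all genes were called. Their mean levels were 13.01 to 13.72 with stretch and 12.91 to 13.69 without. An unadjusted p under 0.05 was found for 45.5% of them, 4 higher and 1 lower, against 13.0% of all genes. Dsg3 had a change of 0.97, Lamb3 of 1.05, Sfn of 0.69 and Epcam of -1.01. Of other cell types, all 11 neutrophil markers had a change above 0, with mean levels of 10.84 to 12.61 with stretch and 9.01 to 10.17 without. Of these 9 (81.8%) had an unadjusted p under 0.05 and none was called. All 8 fibroblast markers had a change below 0, with 14.89 to 15.53 against 15.90 to 16.18. Of the fibroblast markers 4 (50%) had an unadjusted p under 0.05, and 1 was called, Dpt (change -2.30, limma adjusted p = 0.025). Adipocyte markers had 8 of 9 below 0, with 9.88 to 10.89 against 10.83 to 11.45, and skeletal muscle markers 6 of 10, with 14.32 to 16.30 against 15.22 to 15.89. Their part in the keratin values was not tested. No marker on the lists used here was listed at 0, and detection calls were not used. In whole skin, fewer cells of a type and less RNA per cell cannot be told apart.

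With stretch, Krt73, a keratin of the inner root sheath of the hair follicle, fell 3.88-fold and was the 1 keratin of 49 that passed the test, where 0.246% of all genes passed and 0.164% passed as lower. Krt79, Krt28, Krt25 and Krt71 were at mean levels 5.42-fold, 4.03-fold, 3.47-fold and 2.90-fold lower and did not pass (limma adjusted p = 0.054, 0.055, 0.14 and 0.22). Without multiple-test adjustment 8 of 49 keratins (16.3%) had p under 0.05, against 13.0% of all genes, and 7 of the 49 were lower at that p, against 6.07% of all genes. All stretched samples lay below all non-stretched ones for 5 keratins, Krt73, Krt79, Krt28, Krt25 and Krt35, as they did for 2.15% of all genes. No keratin had all stretched samples above the others. The change was below 0 for 36 of the 49, with a median of -0.17, against 50.4% of all genes and a median of 0.00. Dimmer genes were more often below 0, and the median keratin ranked at percentile 36.3 of level among all genes. In the 25% of genes with the lowest levels 2766 of 4876 were below 0, and in the next 25% 2822 of 4876. The keratin count below 0 was 32 after quantile normalization and 29 after median centring. The median change of all genes was then 0.016 and 0.065.

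**Figure D1:**
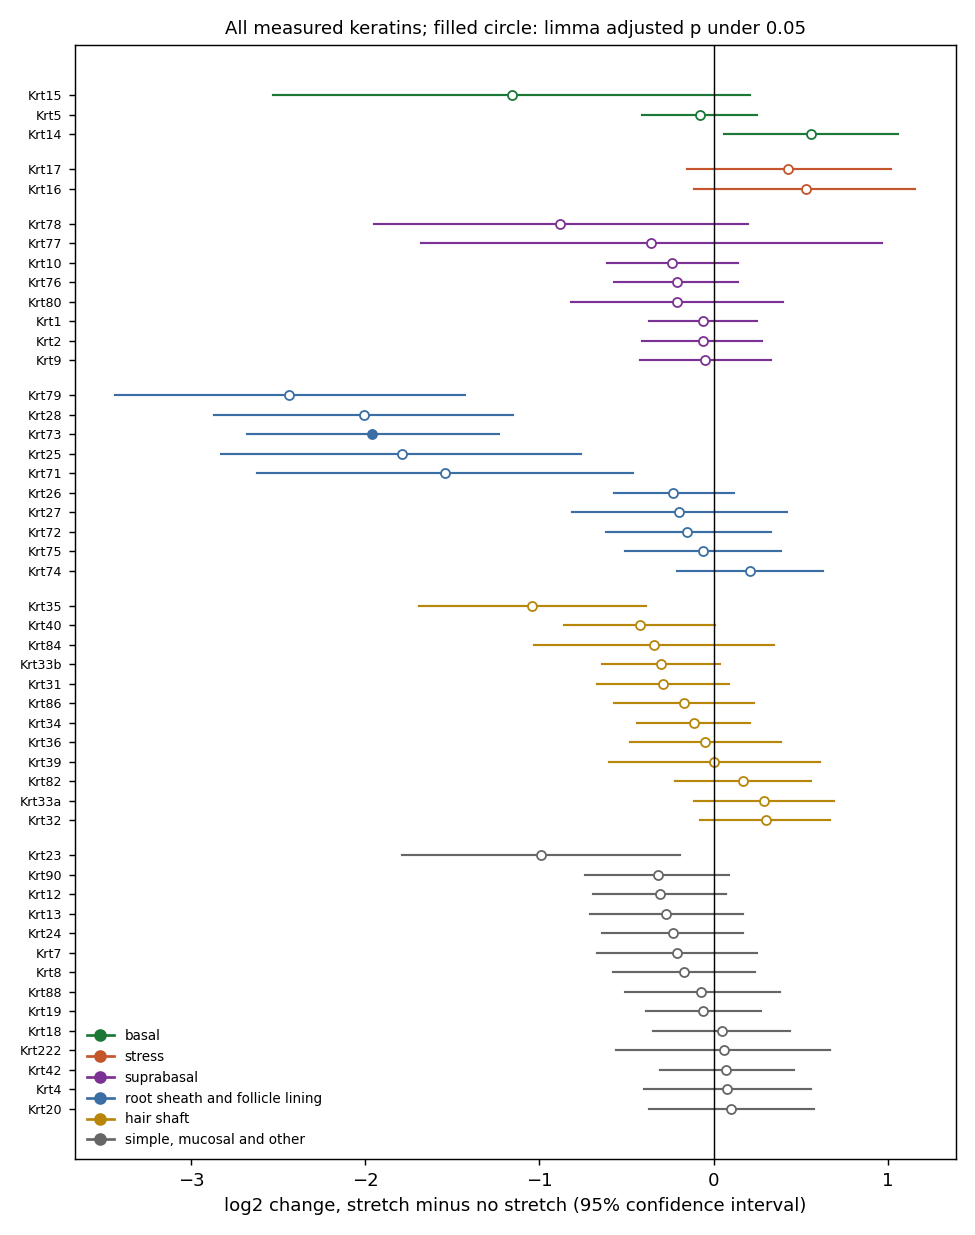
The log2 change of each of the 49 keratins, stretch minus no stretch, is plotted as a circle with its 95% confidence interval, coloured by keratin group; the filled circle marks Krt73, the gene with a limma adjusted p under 0.05. The 5 changes farthest below 0, from -1.54 to -2.44, belong to the root sheath and follicle lining group.

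The largest differences lay in the keratins of the root sheath and follicle lining. Of its 10 measured members 9 had a change below 0 and 5 had an unadjusted p under 0.05 (50%, against 13.0% of all genes). Their median change was -0.88, and it was -0.67 without no-stretch replicate 2 or without no-stretch replicate 3. Krt73, a type II keratin of the inner root sheath cuticle, was at 5.40, 5.26, 5.50, 4.85 and 4.81 in stretch replicates 1 to 5. In no-stretch replicates 1 to 4 it was at 6.57, 8.01, 7.61 and 6.29. Every stretched sample was below every non-stretched one. Its log2 change was -1.96 with a standard error of 0.33 and a limma adjusted p of 0.044. The adjusted p ranged from 0.033 to 0.14 when single arrays were left out, and Krt73 passed in those fits only without stretch replicate 3 or without no-stretch replicate 4.

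Krt28 and Krt25, type I keratins of the inner root sheath, showed the same separation of the groups. Krt28 was at 3.99, 3.45, 4.40, 4.07 and 3.76 with stretch and at 5.07, 6.14, 7.28 and 5.29 without. Its log2 change was -2.01 with a standard error of 0.39. All stretched samples were below all others, and for Krt25 the same held by a small gap. Krt25 was at 3.58, 3.83, 2.88, 3.47 and 2.87 with stretch and at 4.25, 5.97, 6.37 and 3.88 without. Its log2 change was -1.79 (95% confidence interval -2.83 to -0.76).

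Krt71, the type II keratin in which mutations cause the wavy coat of Caracul mice, overlapped between the groups. It was at 4.45, 3.86, 4.71, 4.26 and 4.36 with stretch and at 5.04, 7.04, 6.99 and 4.40 without. No-stretch replicate 4 lay within the range of the stretched samples, and no-stretch replicates 2 and 3 were far above all others. The log2 change was -1.54 (95% confidence interval -2.62 to -0.46). No-stretch replicates 2 and 3 were the highest arrays for Krt73, Krt28 and Krt25 as well, so the non-stretched group was itself divided in these keratins while the stretched samples lay close together. With stretch, Krt28 and Krt25 lay near or below the lower quartile of all genes (3.77 to 3.90 on the stretched arrays). Low values are compressed on these arrays, and the part of this in the small spread was not tested.

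The other inner root sheath keratins had smaller changes and none passed. Krt27, a type I keratin, was at 6.31, 6.58, 6.52, 5.76 and 5.90 with stretch and at 5.79, 6.85, 6.99 and 6.00 without, and the groups overlapped. No-stretch replicates 2 and 3 were above every stretched sample here too, while no-stretch replicates 1 and 4 lay among them. Its log2 change was -0.20 (95% confidence interval -0.81 to 0.42). Krt26 and Krt72 had changes of -0.23 and -0.15, and that of Krt72 was 0.01 without no-stretch replicate 3. Krt74, listed in RefSeq (GRCm38.p6) as a transcribed pseudogene in the mouse, was kept in this group and had a change of 0.21. Krt75, the type II keratin of the companion layer around the inner root sheath, was at 4.10, 4.38, 4.00, 3.61 and 4.32 with stretch and at 4.37, 4.25, 4.24 and 3.70 without. Its change of -0.06 was 0.01 after quantile normalization and after median centring.

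**Figure D2:**
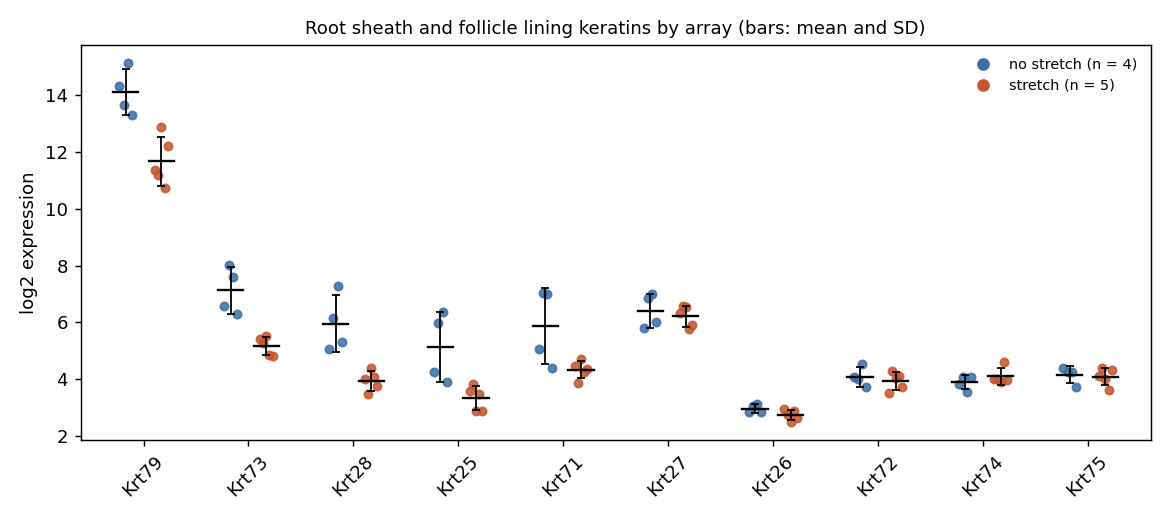
Log2 expression of the 10 root sheath and follicle lining keratins is plotted per array, with the mean and SD of each group as black bars. Krt73 lies between 4.81 and 5.50 in the stretched samples and between 6.29 and 8.01 in the others, while the groups overlap for Krt27, Krt26, Krt72, Krt74 and Krt75.

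In the RefSeq gene table (GRCm38.p6) these genes form 2 unbroken runs, Krt25, Krt26, Krt27 and Krt28 in one and Krt71, Krt74, Krt72 and Krt73 in the other, so Krt73 lies next to Krt72 and Krt28 next to Krt27. Values of neighbours were subtracted within each array as a description, with no test, since the pairs were chosen after the values were seen. The log2 value of Krt28 minus that of Krt27 lay between -3.12 and -1.69 with stretch and between -0.72 and 0.29 without, so the 2 changes differed by -1.81. The changes of Krt73 and Krt72 also differed by -1.81 and those of Krt71 and Krt74 by -1.75, while those of Krt72 and Krt74 differed by -0.36. Krt72 lay between 3.49 and 4.54 and Krt74 between 3.55 and 4.60 on all arrays, much as Krt28 and Krt71 did with stretch. Krt25 reached 2.87 with stretch, below every value of Krt72 and Krt74. Whether low signal limited the changes of Krt72 and Krt74 was not tested. Krt26 was at 2.48 to 3.12 on all arrays, among the dimmest 25% of genes, so little room was left for a lower value and no difference from its neighbours is given.

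Promoter sequence was available for 36 of the 49 keratins, from 250 bases before to 50 after the start site, in RefSeq's GRCm38.p6 table. The promoters of the 4 inner root sheath keratins with the changes farthest below 0 (Krt73, which passed, and Krt28, Krt25 and Krt71, which did not) are shown with those of their neighbours Krt27 and Krt72, which had small changes. All 6 lie on the minus strand, at chr15:101802311-101802610 (Krt73), chr11:99374854-99375153 (Krt28), chr11:99322902-99323201 (Krt25), chr15:101743048-101743347 (Krt71), chr11:99351069-99351368 (Krt27) and chr15:101786471-101786770 (Krt72). Each is written 5′ to 3′, and capitals mark AATTA or its reverse complement TAATT, the core motif of homeodomain proteins.
Krt73: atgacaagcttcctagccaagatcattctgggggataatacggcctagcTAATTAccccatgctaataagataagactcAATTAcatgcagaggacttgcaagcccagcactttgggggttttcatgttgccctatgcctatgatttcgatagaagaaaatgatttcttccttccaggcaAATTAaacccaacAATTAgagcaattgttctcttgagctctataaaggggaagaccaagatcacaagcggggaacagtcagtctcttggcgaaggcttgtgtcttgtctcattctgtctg
Krt28: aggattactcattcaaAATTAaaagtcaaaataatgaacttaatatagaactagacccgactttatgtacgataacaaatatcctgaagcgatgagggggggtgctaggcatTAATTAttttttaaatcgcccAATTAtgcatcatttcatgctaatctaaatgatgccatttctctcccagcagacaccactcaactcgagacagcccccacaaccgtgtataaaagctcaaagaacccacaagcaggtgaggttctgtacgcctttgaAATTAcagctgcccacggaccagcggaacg
Krt25: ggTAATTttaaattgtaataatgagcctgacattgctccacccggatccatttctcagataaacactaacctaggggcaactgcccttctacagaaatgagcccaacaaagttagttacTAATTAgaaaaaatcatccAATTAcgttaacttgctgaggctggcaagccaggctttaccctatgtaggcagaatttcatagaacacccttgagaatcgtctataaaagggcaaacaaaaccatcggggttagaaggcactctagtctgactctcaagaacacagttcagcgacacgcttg
Krt71: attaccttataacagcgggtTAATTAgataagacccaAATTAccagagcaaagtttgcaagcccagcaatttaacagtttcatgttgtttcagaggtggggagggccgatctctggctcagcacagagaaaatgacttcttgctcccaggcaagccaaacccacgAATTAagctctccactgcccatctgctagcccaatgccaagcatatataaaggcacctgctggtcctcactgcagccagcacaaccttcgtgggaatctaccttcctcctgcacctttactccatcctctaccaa
Krt27: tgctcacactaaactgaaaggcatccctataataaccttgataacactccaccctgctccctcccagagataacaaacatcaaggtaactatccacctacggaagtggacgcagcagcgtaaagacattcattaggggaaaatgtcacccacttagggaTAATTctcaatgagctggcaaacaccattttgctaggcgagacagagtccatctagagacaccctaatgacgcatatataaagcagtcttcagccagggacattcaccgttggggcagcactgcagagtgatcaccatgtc
Krt72: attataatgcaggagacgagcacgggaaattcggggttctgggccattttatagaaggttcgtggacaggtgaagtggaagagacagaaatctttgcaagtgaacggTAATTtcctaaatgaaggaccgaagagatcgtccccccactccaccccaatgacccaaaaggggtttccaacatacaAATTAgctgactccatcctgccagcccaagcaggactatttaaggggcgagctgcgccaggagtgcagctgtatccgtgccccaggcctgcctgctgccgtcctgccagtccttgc

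The homeodomain core, read on both strands with overlapping matches counted, occurred 5 times each in the Krt73 and Krt28 promoters and 4 times each in those of Krt25 and Krt71. It occurred once in the promoter of Krt27 and 2 times in those of Krt72 and Krt26. TAATTA counts as 2 matches, since it reads the same on both strands. At least 1 match was present in 27.0% of all 32851 promoters of this length, and 4 or more in 1.65%. Among keratins 16 of 36 promoters held a match and 5 held 4 or more, the fifth being the hair keratin Krt32, which had a log2 change of 0.30. The promoter of Krt79, the keratin with the largest change in size (-2.44), held 0 matches and 0 copies of TATAAA. The motif was chosen after the sequences were seen, and a match describes letters and not binding. The letters TATAAA stood 30 bases before the start of Krt73, Krt28 and Krt25 and 40 before that of Krt71. They also stood 15 bases before the start of Krt27 and occurred 2 times in Krt26, but not in Krt72. Among keratins 17 of 36 promoters held them on the same strand, against 8.32% of all promoters. GATAA, the GATA factor motif, was found on either strand 2 times in Krt73 and 3 times in Krt27. It was found once each in Krt28, Krt25 and Krt71, and not in Krt72. Among keratins 21 of 36 promoters held GATAA, against 25.4% of all promoters. CTTTGA, the LEF/TCF factor motif, was in 9 of 36 keratin promoters, against 16% of all. Of the promoters shown, only that of Krt28 held CTTTGA, 2 times.

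Krt79 is made by the cells that line the upper hair canal and the ducts of the sebaceous glands. It was at 11.36, 11.19, 12.90, 10.73 and 12.21 with stretch and at 14.34, 13.67, 15.16 and 13.30 without. Stretch replicate 3 came close to the lowest non-stretched sample, but the groups did not overlap. The log2 change was -2.44 (95% confidence interval -3.44 to -1.43), the largest of any keratin in size. It missed the threshold with all arrays, and left-out arrays moved its adjusted p between 0.017 and 0.18. Leaving out stretch replicate 3 or no-stretch replicate 4 brought it past the threshold. Sebocyte markers had changes of the same sign, since all 11 measured had a change below 0. Of these 7 (63.6%) had an unadjusted p under 0.05, against 13.0% of all genes. Among them the fatty acid synthase gene Fasn passed (4.76-fold lower, limma adjusted p = 0.045), and Elovl3, a fatty acid elongase, was at a mean level 6.37-fold lower (adjusted p = 0.088). The mean level of the sebocyte list was 8.68 to 9.74 with stretch and 9.70 to 10.75 without. Their part in the Krt79 difference was not tested.

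Other genes of hair follicle differentiation were mixed. Of 24 measured 15 had a change below 0 and 9 above, with a median of -0.12 and 1 called. That gene was Lhx2, a homeodomain factor of the follicle, which was 4.85-fold lower (limma adjusted p = 0.029). Dlx3, a homeodomain factor needed for hair differentiation, had a log2 change of -1.22 with no overlap of the groups (adjusted p = 0.094). Prr9, a proline-rich protein gene, went the other way with a change of 1.14 (adjusted p = 0.069). Trichohyalin (Tchh), the protein that cross-links inner root sheath keratins, was at 5.55, 5.24, 5.99, 4.80 and 5.94 with stretch and at 6.01, 7.54, 7.45 and 5.35 without. As with Krt71, no-stretch replicates 2 and 3 were the highest and no-stretch replicate 4 lay among the stretched samples. The Tchh log2 change was -1.08 (adjusted p = 0.32). Hair cycle signals had a median change of -0.28, with 21 of 24 below 0 and 1 called, Cd34 (log2 change -1.60, limma adjusted p = 0.0046). Whole skin does not tell which cells the Cd34 signal came from. Sox9, a factor of follicle stem cells, had a change of -1.06 and Sostdc1, a Wnt and BMP antagonist, one of -1.04. Fgf7, a growth factor for keratinocytes, had the largest change of the list in size and lay on the other side, at 1.81 (limma adjusted p = 0.12). The mean level of this list was 5.84 to 6.07 with stretch and 6.24 to 6.45 without. Melanocyte markers had 8 of 10 changes below 0 and 2 called, Pmel and Dct. The mean level of the melanocyte list was 4.81 to 5.22 with stretch and 5.56 to 5.78 without. Over all genes 0.246% were called. The parts of these lists in the keratin differences were not tested.

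The hair shaft keratins lay low on all arrays and none passed. Their mean level was 3.58 to 3.91 with stretch and 3.72 to 4.08 without, near the mean of the 25% of all genes with the lowest levels (3.11 to 3.36 over the 9 arrays). Of 12 measured 8 had a change below 0, with a median of -0.14 and none called. Only 1, Krt35, had an unadjusted p under 0.05 (8.33%, against 13.0% of all genes). Krt35, a type I keratin made early in the forming hair, was at 3.40, 3.47, 3.0, 2.52 and 3.19 with stretch and at 3.64, 5.03, 4.27 and 3.68 without. The groups did not overlap, by a gap of less than 0.2 between stretch replicate 2 and no-stretch replicate 1. Its log2 change was -1.04 (95% confidence interval -1.69 to -0.39, limma adjusted p = 0.17). Krt31, another cortex keratin, was at 4.98, 4.42, 4.53, 4.51 and 4.56 with stretch and at 4.69, 4.73, 4.98 and 5.14 without, and stretch replicate 1 lay among the non-stretched values. Its change was -0.29 (95% confidence interval -0.67 to 0.09). The other 10 had changes from -0.42 (Krt40) to 0.30 (Krt32).

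The keratin-associated proteins, which embed hair keratins in the shaft, were measured through 50 Krtap genes. Of these, 42 had a change below 0, with a median of -0.19 and none called. Krtap3-2 and Krtap3-3 had the same values on every array, so they may be a single measurement, and both are counted. Below 0 were 50.4% of all genes, and 2766 of the 4876 genes that form the dimmest 25%. An unadjusted p under 0.05 was found for 7 Krtap genes (14%), against 13.0% of all genes. The mean Krtap level was 4.81 on no-stretch replicate 3, 4.16 to 4.26 on the other non-stretched arrays and 4.05 to 4.21 with stretch. Without no-stretch replicate 3 the Krtap median was -0.10. That array also had the highest mean of these dimmest 25% of genes, 3.36 against 3.11 to 3.21 on the other 8. The part of this shift of dim genes in the Krtap values was not tested.

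**Figure D3:**
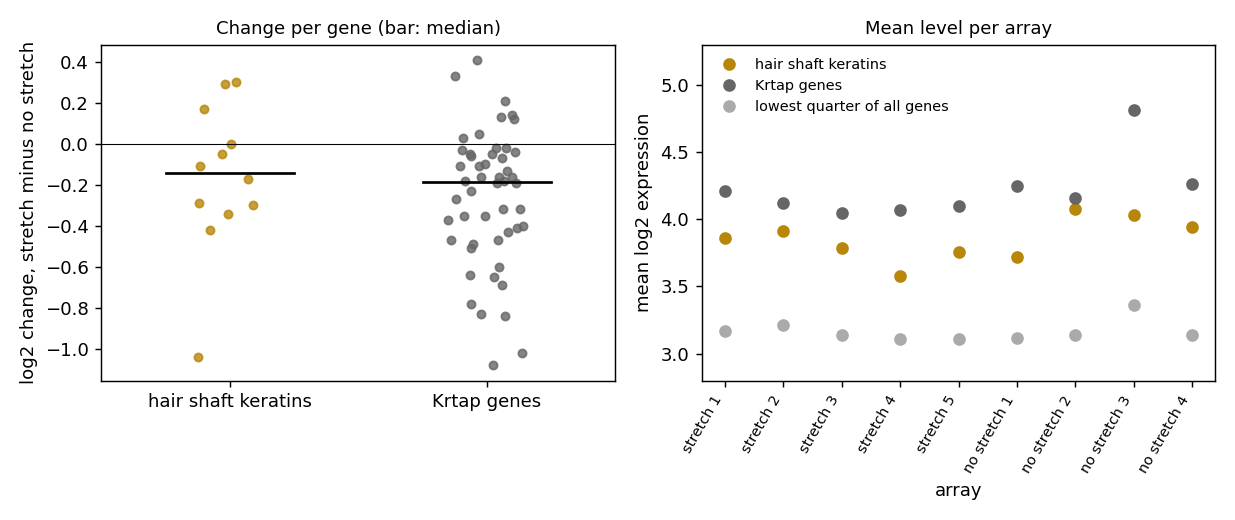
The left panel plots the log2 change of each of the 12 hair shaft keratins and 50 Krtap genes, with the median as a bar (-0.14 and -0.19); the right panel plots mean log2 expression per array for both sets and for the dimmest 25% of all genes. The Krtap mean of 4.81 on no-stretch replicate 3 stands above the other 8 arrays, on the same array as the highest value of the dimmest genes.

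In the epidermis neither of the basal partners Krt5 and Krt14 passed. Krt14 was at 19.60, 19.76, 19.63, 19.13 and 19.53 with stretch and at 18.77, 19.48, 18.41 and 19.22 without. The groups overlapped, since no-stretch replicates 2 and 4 were above stretch replicate 4. Its log2 change was 0.56 (95% confidence interval 0.06 to 1.06), with an unadjusted p of 0.031 and a limma adjusted p of 0.33. Without no-stretch replicate 3 the change was 0.37 (adjusted p = 0.61). Krt5 was at 17.48, 17.48, 17.44, 17.16 and 17.44 with stretch and at 17.54, 17.68, 17.35 and 17.34 without. These values lay within 0.6 of each other, and the change was -0.08 (95% confidence interval -0.41 to 0.25). Krt14 minus Krt5 lay between 1.97 and 2.28 in the stretched and between 1.07 and 1.88 in the non-stretched samples. The 2 changes differed by 0.64, a description of a pair chosen after the values were seen. Krt14 came within 0.16 to 1.50 of the highest value on its array, and Krt5 within 2.25 to 2.78, so differences in Krt14 may be compressed.

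Krt15, a keratin of basal cells and of the follicle bulge where hair stem cells reside, was at 10.00, 9.46, 9.43, 6.61 and 8.56 with stretch. Without stretch it was at 10.28, 8.66, 10.82 and 10.14. Stretch replicate 4 was far below the rest, and the other samples of both groups overlapped. The log2 change was -1.16 (95% confidence interval -2.53 to 0.21) and -0.61 without stretch replicate 4.

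The stress keratins Krt16 and Krt17 did not pass, and their groups overlapped. Krt16, induced in wounded and psoriatic epidermis, was at 18.49, 18.95, 19.43, 18.16 and 18.67 with stretch and at 17.85, 18.95, 17.83 and 18.24 without. No-stretch replicate 2 was as high as the second highest stretched sample. The log2 change was 0.53 (95% confidence interval -0.11 to 1.16, limma adjusted p = 0.48). Krt16 came within 0.50 to 2.09 of the highest value on its array, so differences in Krt16 may be compressed too. Krt17, which is also made in the follicle outer root sheath, was at 14.91, 15.35, 16.05, 15.13 and 15.31 with stretch and at 14.49, 15.59, 14.74 and 14.85 without. Stretch replicate 3 was highest for both genes and no-stretch replicate 2 the highest of its group for both. The Krt17 change was 0.43 (95% confidence interval -0.15 to 1.02, adjusted p = 0.53). The median of the pair was 0.48, and single left-out arrays moved it between 0.31, when stretch replicate 3 was left out, and 0.71, when no-stretch replicate 2 was.

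Of the 8 suprabasal keratins none was called and none had an unadjusted p under 0.05. All 8 changes were below 0, with a median of -0.21, but Krt1 and Krt2 were at 0.01 and 0.00 after median centring, and Krt9 was at 0.02 there and at 0.03 after quantile normalization. Krt1 was at 19.92, 19.91, 19.93, 19.62 and 19.93 with stretch and at 19.93, 19.93, 19.91 and 19.93 without. On some arrays it was the brightest feature of all, so the array leaves no room to show a higher level. Krt10, its type I partner, was at 19.68, 19.51, 19.68, 19.07 and 19.69 with stretch and at 19.78, 19.69, 19.91 and 19.69 without. Stretch replicate 4 was the lowest for both partners. The Krt10 change was -0.24 (95% confidence interval -0.61 to 0.14) and was -0.13 without stretch replicate 4. Krt2, which in mice is a keratin of ear, tail and sole epidermis, lay between 2.84 and 3.28 on all 9 arrays, with a change of -0.06.

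Less abundant suprabasal keratins varied more among the samples. Krt78, a keratin of upper differentiated layers, was at 9.73, 7.81, 10.47, 7.70 and 9.13 with stretch and at 9.97, 9.81, 9.79 and 9.81 without. The non-stretched samples were nearly equal, while the stretched ones spread over almost 3 log2 units on both sides of them. The Krt78 change was -0.88 (95% confidence interval -1.95 to 0.20), and it was -0.59 without stretch replicate 2 and -0.56 without stretch replicate 4. Krt77, a keratin of sweat gland ducts and upper epidermis, had a change of -0.36 that turned to 0.10 when stretch replicate 4 was left out and to 0.07 when no-stretch replicate 3 was. Krt80, a type II keratin of many differentiating epithelia, had a change of -0.21.

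**Figure D4:**
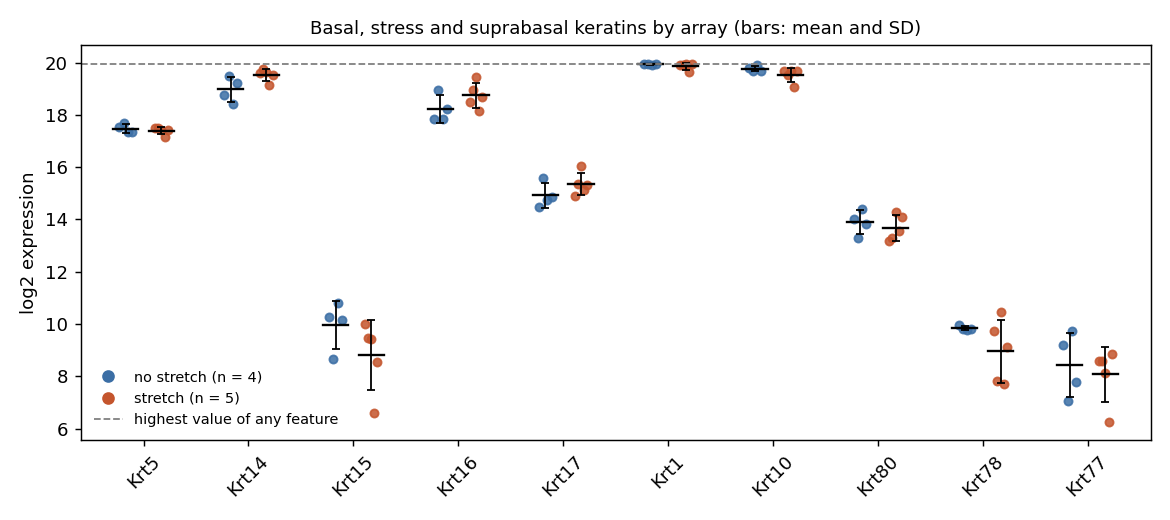
Log2 expression of 10 basal, stress and suprabasal keratins is plotted per array with the mean and SD of each group; the dashed line is the highest value of any feature on the arrays, 19.93. Krt1 and Krt10 sit at or near that line in both groups, and the groups overlap for every gene shown.

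Genes that link keratin filaments to junctions or to the cornified envelope, and regulators of epidermal keratin genes, contained no called gene. Among all genes the share called was 0.246%. Of 18 linkers and envelope genes 12 had a change below 0, with a median of -0.29. An unadjusted p under 0.05 was found for 6 (33.3%, against 13.0% of all genes), all below 0. Hrnr, a filament-aggregating hornerin, was at a mean level 1.77-fold lower with no overlap of the groups (limma adjusted p = 0.31), and Lor, loricrin, had a change of -0.98. Of 19 regulators 13 were below 0, with a median of -0.26. An unadjusted p under 0.05 was found for 36.8% of them (against 13.0% of all genes), 5 below 0 and 2 above. Rarg, the retinoic acid receptor of epidermis, was at 10.90, 11.75, 11.55, 10.33 and 11.56 with stretch and at 12.72, 12.56, 12.73 and 12.59 without. The groups did not overlap and the Rarg change was -1.43 (adjusted p = 0.054). The vitamin D receptor gene Vdr had a change of -0.88 (adjusted p = 0.11), and Cebpb and the AP-1 gene Fosl1 had changes of 0.82 and 0.78 (adjusted p = 0.20 and 0.33). Cell cycle genes, which mark dividing cells, had 15 of 18 changes above 0 with a median of 0.28; Cdk1 had the smallest p, with a change of 1.19 (adjusted p = 0.16).

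The 14 keratins of simple, mucosal and other epithelia had a median change of -0.12, with 9 below 0 and none called. Krt23, a type I keratin, was the 1 member with an unadjusted p under 0.05 (7.14%, against 13.0% of all genes). It was at 7.14, 6.99, 8.26, 7.14 and 8.40 with stretch and at 8.94, 8.00, 9.25 and 8.11 without. Stretch replicates 3 and 5 lay above the 2 lowest non-stretched samples, so the groups overlapped. The change was -0.99 (95% confidence interval -1.79 to -0.19, limma adjusted p = 0.28).

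The simple epithelial pair Krt8 and Krt18 and the duct and sweat gland keratins Krt7 and Krt19 differed by less than the spread between replicates. Krt8 lay between 5.23 and 5.86 with stretch and between 5.42 and 5.86 without, and Krt18 between 3.33 and 3.70 and between 3.06 and 3.83. Krt7 lay between 5.37 and 6.16 with stretch and between 5.61 and 6.38 without, and Krt19 between 3.76 and 4.14 and between 3.89 and 4.20. The ranges overlapped almost wholly for Krt8 and Krt18 and in part for Krt7 and Krt19. Their changes were -0.17, 0.05, -0.21 and -0.06, and that of Krt19 was 0.01 after quantile normalization and after median centring. The remaining 9 of the group had changes from -0.32 (Krt90) to 0.10 (Krt20).

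**Figure D5:**
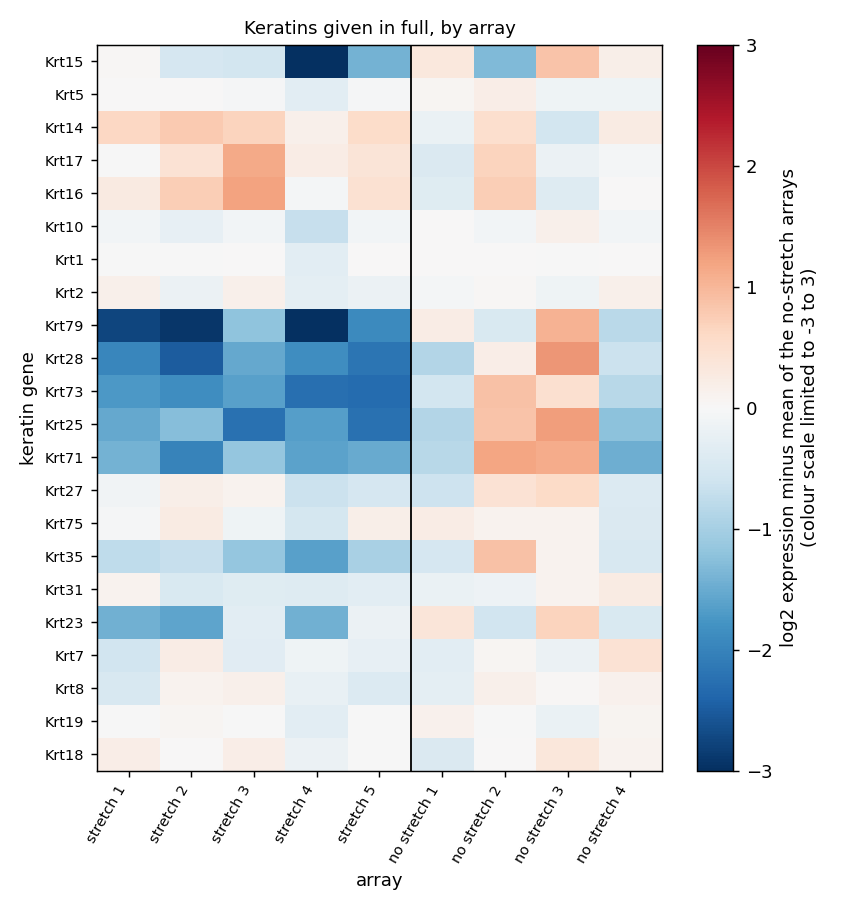
Each cell shows, for 22 keratins, log2 expression on 1 array minus the mean of the no-stretch arrays, on a colour scale limited to -3 to 3. The 22 are the keratins given by array in the text, with Krt2, Krt7, Krt8, Krt18 and Krt19, given there by range. Krt79, Krt28, Krt73, Krt25 and Krt71 are lower on all 5 stretched arrays than that mean, and among the non-stretched arrays Krt25 and Krt71 are high on replicates 2 and 3 and low on replicates 1 and 4.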

How the data were processed

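Total RNA from mouse skin was labelled with biotin and hybridised to Affymetrix arrays, per the labels' protocols. The deposited log2 expression values covered 22206 features on 9 arrays; the submitters' processing notes name RMA and Transcriptome Analysis Console without versions. RMA compresses low values towards a floor and arrays saturate at the top, so changes of very dim or very bright genes can be understated. Build and filters: not given in the sources used here. The platform table named 19572 features (2634 unnamed), giving 19505 genes; where 55 genes had several features, the one with the highest mean was used. The number of arrays limits the precision.

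Samples were grouped by title. The groups were compared in limma 3.58.1 (R 4.3.3; lmFit, then eBayes) by a two-sided test without covariates, adjusted by Benjamini-Hochberg over all genes. The script was tested on simulated data. The keratin groups and lists were chosen with earlier results of these data known. All keratins could be named. Values on every array are given for those with an unadjusted p under 0.05, an absolute log2 change of at least 1, or on a preset list. For Krt2, Krt7, Krt8, Krt18 and Krt19 of that list only the ranges are written out. Of each other list, the 4 members of smallest p and every called gene could be named. Alternatives were quantile normalization, median centring, dropping the dimmest 25% of genes, averaged features, array weights, a block for the replicate number, another variance model and leaving out each array; leaving out 2 arrays was added after seeing the data. Within-array differences of keratin pairs, also chosen then, are given without a test.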

Additional observations from a re-analysis of the deposited data

Results flagged for a closer look

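In 11 of 98 tests (49 keratins in each group), 1 array stood apart from the rest of its group by Dixon's criterion, where chance flags about 1 in 20. Stretch replicate 4 was the array apart in 5 of them: it was low for Krt1 (19.62, next 19.91), Krt5 (17.16, next 17.44), Krt19 (3.76, next 4.07) and Krt77 (6.26, next 8.12), and high for Krt74 (4.60, next 4.01). Stretch replicate 1 was high for Krt31 (4.98, next 4.56), Krt82 (3.61, next 3.16) and Krt222 (5.57, next 4.72). No-stretch replicate 3 was low for Krt1 (19.91, next 19.93) and high for Krt9 (4.02, next 3.90). No-stretch replicate 1 was high for Krt78 (9.97, next 9.81). The flag on Krt1 without stretch and those on Krt9 and Krt78 rest on gaps of less than 0.2 between otherwise nearly equal values.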

How the results depend on the processing

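With all arrays 48 genes and 1 keratin passed. Single left-out arrays moved these counts between 2 and 195 genes and between 0 and 3 keratins. Without the dimmest 25% of genes 105 genes and 3 keratins (Krt73, Krt28 and Krt79) passed, and the root sheath median was -1.54 because Krt26 was dropped. With array weights the counts were 157 and 3 (the same 3 keratins), and without the 2 arrays of lowest weight they were 15 and 0. The replicate number as a block, a fit in which stretch replicate 5 has no partner, gave 221 genes and 4 keratins (Krt23 added); same-numbered arrays correlated at -0.062, -0.018, 0.064 and 0.34, so the numbers are not taken as pairs. Quantile normalization, median centring, averaged features and another variance model left 1 keratin called. The other group medians moved by less than 1 SD of the array means under every alternative run. Krt73, Krt79, Krt28, Krt25 and Krt71 stayed below 0 in every alternative run.

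Keratins of small change turned sign. After quantile normalization Krt19 and Krt75 were at 0.01, Krt88 at 0.00 and Krt9 at 0.03. After median centring Krt1, Krt19 and Krt75 were at 0.01, Krt2 and Krt88 at 0.00, and Krt36 and Krt9 at 0.02. With array weights Krt75 and Krt88 were at 0.00, and with the replicate block Krt20 was at -0.04. Without the 2 arrays of lowest weight Krt4 was at -0.13, Krt82 at -0.03, Krt86 at 0.00, Krt9 at 0.02, Krt80 at 0.08, and Krt72 and Krt88 at 0.12. Single left-out arrays turned Krt222 (-0.13 to 0.31), Krt4 (-0.05 to 0.23), Krt39 (-0.23 to 0.27), Krt36 (-0.18 to 0.04), Krt19 (-0.12 to 0.00), Krt75 (-0.21 to 0.06), Krt77 (-0.82 to 0.10), Krt9 (-0.15 to 0.04), Krt20 (-0.04 to 0.20), Krt18 (-0.10 to 0.16), Krt42 (-0.03 to 0.16), Krt72 (-0.27 to 0.01) and Krt88 (-0.19 to 0.14). The level of dim keratins against background was not assessed.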
